A study of Mus musculus with 6 samples.

Results

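The genes described here are 30 genes of mitosis: kinases and cyclins that drive entry into division, checkpoint and kinetochore genes, chromosome structure genes, spindle genes and genes of anaphase and exit. The rule lists them by name and uses no measured value, but the members were chosen with earlier results of these data known. All 30 were found among the 22274 genes of a messenger RNA count table from mouse testes, 28 by symbol and Cenpf and Ncapg by Ensembl ID. All 30 passed the filter on low counts, with 467 to 8565 counts per gene and library, so none was lost and none passed through its level in 1 group alone. The study concerns DCAF2, which brings substrates to the CRL4 ubiquitin ligase, in dividing spermatogonia; p21, an inhibitor of cyclin-dependent kinases, is a target named in its title. The cKO group has 3 libraries from testes in which floxed Dcaf2 (Dcaf2fl/fl) was deleted by Stra8-Cre, a recombinase driven by a promoter of spermatogonia. The control group has 3 libraries labelled control, with no allele stated. Both groups are labelled day 9, without the event from which days were counted. Cre acts in germ cells, and a whole testis also holds Sertoli, Leydig, myoid, vascular and immune cells, in which this Cre is not known to act. Libraries are numbered, but nothing says that each came from its own animal. The p-values rest on the spread among these libraries, which can be partly technical. That spread was unequal. Between libraries of a group, the chi-square per degree of freedom of the counts was 4.36 to 6.40 in cKO and 15.5 to 51.9 in controls. The edgeR test takes a shared spread per gene for both groups.

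Entry into mitosis is driven by cyclin-dependent kinase 1 bound to a B-type cyclin, helped by Polo and Aurora kinases. Kinetochores then attach chromosomes to spindle microtubules, and the spindle checkpoint holds back the anaphase-promoting complex until attachment is complete. The complex, switched on by CDC20, marks cyclin B and the inhibitor of separase for destruction, after which chromatids part and the cell divides. In the young testis spermatogonia divide by mitosis before they enter meiosis, and Sertoli cells still divide as well, so transcripts of these genes can come from more than a single cell type. Most of these genes are switched on together late in the cell cycle. Known elements for this control in mammalian promoters are the cell cycle genes homology region (CHR), bound by the MuvB core of the DREAM and B-MYB complexes, and the CCAAT box, bound by NF-Y.

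The 4 promoters shown are those of the B-type cyclins, of their kinase and of Cdc20, because Ccnb1 and Cdc20 fell, and Cdk1 and Ccnb2, which work with them, did not pass the test. They are RefSeq sequences of build GRCm38.p6, from 250 bases before to 50 bases after the start of the gene, all on the minus strand and written 5′ to 3′: Ccnb1 at chr13:100786437-100786736, Ccnb2 at chr9:70421505-70421804, Cdk1 at chr10:69352863-69353162 and Cdc20 at chr4:118437294-118437593. Capitals mark CHR letters (TTTGAA or TTCGAA) and CCAAT boxes (CCAAT), on either strand.
Ccnb1: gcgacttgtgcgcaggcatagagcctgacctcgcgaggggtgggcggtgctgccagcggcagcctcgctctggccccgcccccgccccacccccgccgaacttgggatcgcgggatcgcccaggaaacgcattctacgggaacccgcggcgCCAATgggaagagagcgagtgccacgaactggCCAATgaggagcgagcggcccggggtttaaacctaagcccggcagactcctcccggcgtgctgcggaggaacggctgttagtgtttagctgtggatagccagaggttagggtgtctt
Ccnb2: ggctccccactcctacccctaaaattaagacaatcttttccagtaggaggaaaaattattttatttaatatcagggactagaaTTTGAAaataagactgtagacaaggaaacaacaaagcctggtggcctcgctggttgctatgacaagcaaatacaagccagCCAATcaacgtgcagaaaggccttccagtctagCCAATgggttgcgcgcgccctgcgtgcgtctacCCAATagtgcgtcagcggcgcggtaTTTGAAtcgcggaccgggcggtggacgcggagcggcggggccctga
Cdk1: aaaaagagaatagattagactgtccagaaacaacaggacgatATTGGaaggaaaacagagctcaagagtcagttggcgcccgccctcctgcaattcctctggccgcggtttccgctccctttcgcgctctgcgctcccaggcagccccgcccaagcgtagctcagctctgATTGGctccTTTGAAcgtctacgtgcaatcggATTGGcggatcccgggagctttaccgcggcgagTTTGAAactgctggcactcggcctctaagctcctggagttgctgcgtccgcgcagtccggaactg
Cdc20: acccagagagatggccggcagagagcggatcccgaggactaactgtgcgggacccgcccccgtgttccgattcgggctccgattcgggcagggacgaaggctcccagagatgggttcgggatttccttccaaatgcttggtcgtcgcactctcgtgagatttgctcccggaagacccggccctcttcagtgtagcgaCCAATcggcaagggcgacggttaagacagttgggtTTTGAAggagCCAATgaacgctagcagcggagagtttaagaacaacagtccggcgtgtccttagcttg
Cdc20 has 1 CHR match and 2 CCAAT boxes, Ccnb2 and Cdk1 have 2 and 3 each, and Ccnb1 has 2 CCAAT boxes and no run of these CHR letters in this window.

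Of the 30 genes, 26 have a promoter in the RefSeq table, and 20 of the 26 (76.9%) hold CHR letters, against 21.7% of the 27025 genes with a promoter. CCAAT boxes stood in 21 of the 26 (80.8%) and in 41.1% of all genes, and both elements in 19 of the 26 (73.1%) and in 9.65% of all genes. Counted by window rather than by gene, CHR letters stood in 21 of 27 windows of these genes (77.8%), against 19.2% of all windows. No CHR match overlapped a CCAAT box in these windows, and a pair of CCAAT boxes on opposite strands overlapped in Ube2c. The matches describe letters and do not show binding. Among the genes that fell in the knockout, 7 of 8 with a promoter in the table held CHR letters, and among those not past the test 13 of 18. Ndc80 was the gene among the 8 with no CCAAT box, and Ccnb1 the gene with no CHR letters.

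The libraries held 15407007 to 18372964 counts. The transcript of the targeted gene, listed as Dtl, was at 41.7, 43.8 and 51.5 CPM (counts-per-million, scaled by library) in cKO libraries and at 42.6, 50.3 and 77.4 CPM in controls, which overlap (log2 fold change -0.31, edgeR adjusted p = 0.281). Whole-gene counts include transcripts that lack the deleted part and those of somatic cells, so this level does not check the labels. Control library 1 stood apart from the other controls. Its short transcripts were high and its long ones low: the median log2 deviation from the gene mean over all libraries was 0.26 for genes of up to 2117 bases and -0.25 for genes over 3622 bases, against -0.09 to 0.02 and -0.06 to 0.10 in the other libraries. It also held 0.759 times the summed CPM of pan-germ-cell markers, 1.38 times that of Sertoli cell markers and 1.92 times that of Leydig cell markers, relative to the mean of the other controls. The 16 tested pan-germ-cell markers all fell in the knockout (median log2 fold change -1.43), with a summed level of 576 to 726 CPM in cKO libraries and 1494 to 1994 CPM in controls. Of 20 Sertoli cell markers 9 rose and 0 fell (median 0.39), with sums of 9529 to 10840 CPM in cKO libraries and 7053 to 9816 CPM in controls.

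**Figure D1:**
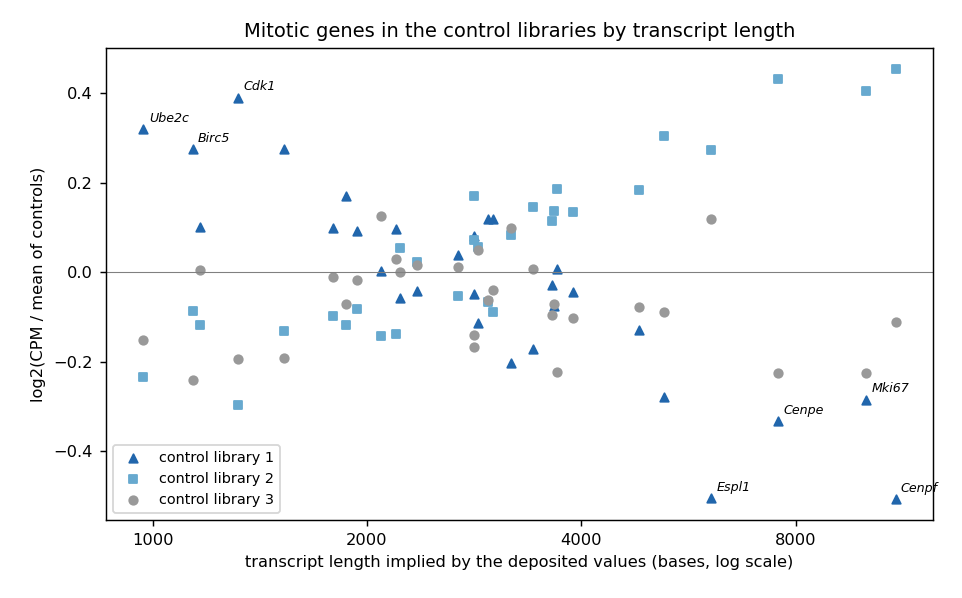
Each of the 30 mitotic genes in the 3 control libraries, as log2 of CPM over the mean of the controls (vertical) against the transcript length implied by the deposited counts and FPKM (horizontal, log scale, bases). Control library 1 is above the mean for all 9 genes of up to 2117 bases and below it for 9 of the 10 over 3622 bases, and control library 2 is below and above it for all of them. Control library 3 is below it for 7 of the 9 and for 9 of the 10. The mean is that of the same 3 libraries.

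This length pattern reached the mitotic genes. Their transcripts run from 970 bases (Ube2c) to 11056 bases (Cenpf), as implied by the deposited values. Of the 9 with up to 2117 bases, all 9 were above the control mean in control library 1 and all 9 below it in control library 2. In control library 3, 7 of the 9 were below it. Of the 10 over 3622 bases, 9 were below the mean in control library 1, all 10 above it in control library 2 and 9 below it in control library 3. The mean is that of the same 3 controls, so a shift in 1 of them also moves the others relative to it. Results are therefore also given without control library 1, and after a smooth trend on transcript length was removed from each library.

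Relative to the whole transcriptome (TMM scaling) 10 of the mitotic genes fell in the knockout and none rose, while relative to pan-germ-cell genes all 30 were higher, as were 92.3% of all tested genes. Of the 30, 10 were lower (edgeR, adjusted p under 0.05 over all 14424 tested genes) and 0 were higher. Of all tested genes 13.9% were called lower and 11.1% higher, and the counts of each class given below stand beside these shares. An unadjusted p under 0.05 was found for 13 lower and 0 higher genes of the 30, and for 2880 lower and 2756 higher genes of all 14424. DESeq2 called 11 lower and 0 higher (15.8% and 11.9% of all genes), and limma-voom 10 and 0 (13.4% and 11.5%). Among the 6582 genes at or above the lowest mean level of the 30, 12.5% were called lower and 16.1% higher. The median log2 fold change was -0.25 over the 30 genes and 0.03 over all tested genes, and the values ran from -0.82 (Espl1) to 0.21 (Cdk1). All cKO libraries lay below all controls for 15 of the 30 genes (22.1% of all tested genes), and above all controls for 0 (22.5% of all). Fewer dividing cells and less of these transcripts per cell cannot be told apart in whole testes.

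**Figure D2:**
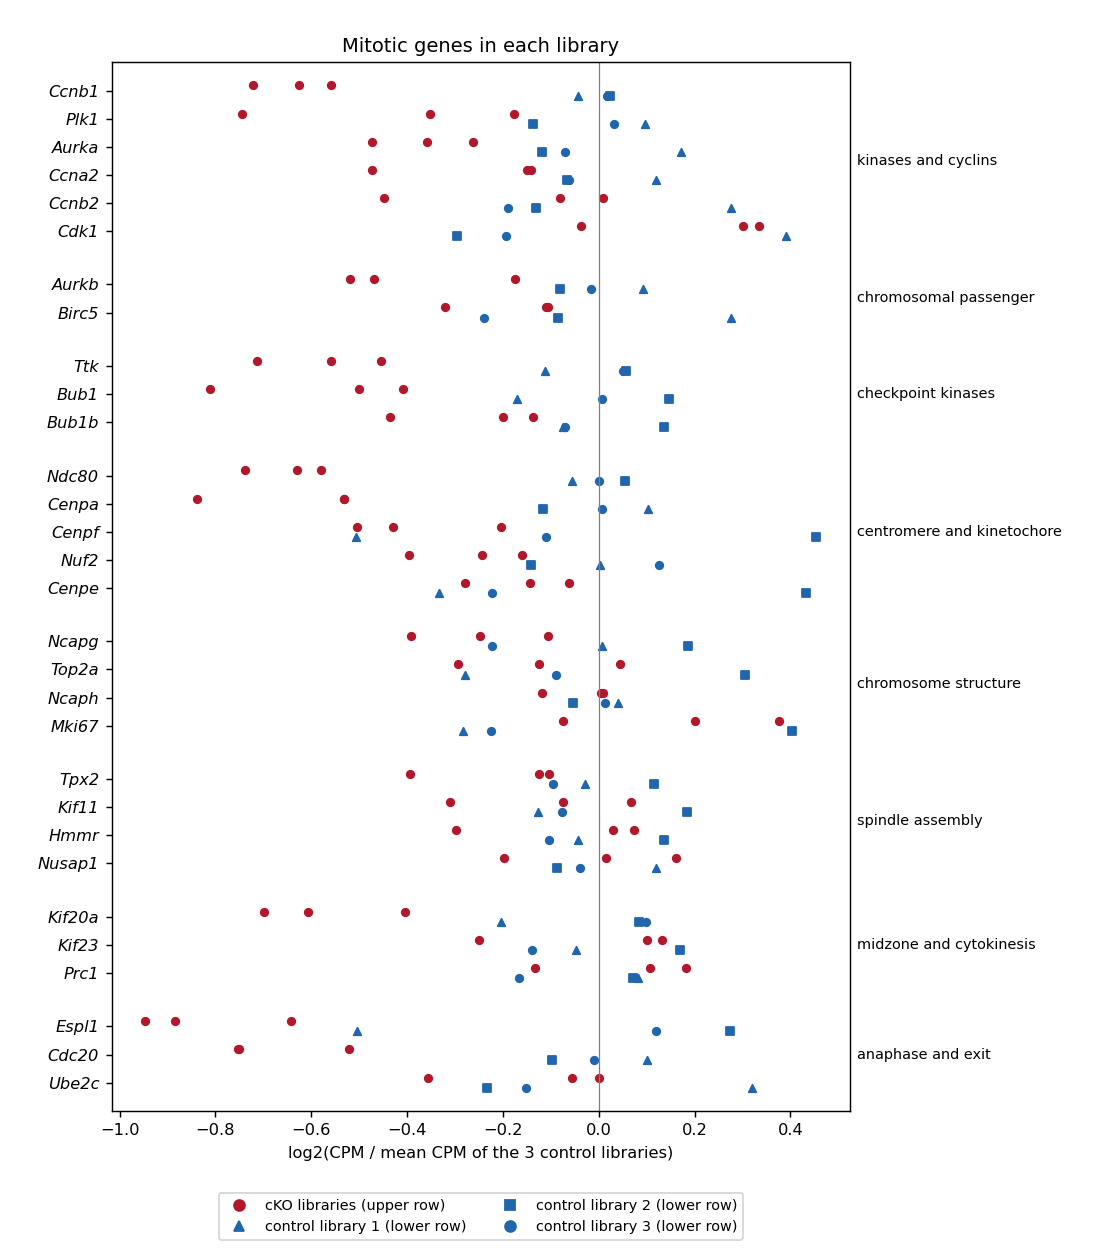
CPM of each mitotic gene in each library, as log2 of the ratio to the mean of the 3 controls, with cKO libraries in red (upper row of a gene) and controls in blue (lower row), grouped by role. The groups are clear of each other for Ccnb1, Ndc80 and Cdc20, and they overlap for Cdk1, Mki67 and Prc1.

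Ccnb1, Cdc20, Cenpa, Ndc80 and Ttk were lower whichever of the 6 libraries was left out, and under each other alternative run except scaling to germ-cell genes. The other 5 calls, on Aurka, Aurkb, Bub1, Espl1 and Kif20a, were lost without control library 3, without cKO library 1 and without cKO library 2. Then 5 genes were lower and 0 higher, where 7.63%, 6.59% and 6.19% of all tested genes were lower and 4.62%, 3.24% and 3.1% higher. Without cKO library 3 the call on Aurka was lost, and 9 were lower and 0 higher (8.56% and 4.57% of all). Without control library 1, 12 were lower and Cdk1 was higher (19.7% and 16.4% of all), and without control library 2, 12 were lower and Mki67 was higher (15.7% and 13.7%). With the length trend removed, 17 were lower and Cdk1 was higher (19.5% and 14.3% of all), and with control library 1 left out as well, 17 and again Cdk1 (22.1% and 17.5%). With the replicate number as a block, 8 were lower and 0 higher (10.9% and 8.65% of all). Other scalings (RLE, upper quartile, total count) and filters (none, CPM of at least 1 in 3 libraries) gave 10, 10, 11, 10 and 10 lower, where 14.7%, 14.5%, 16.8%, 11% and 14.4% of all genes were lower. They gave 0 higher each, where 10.1%, 9.5%, 7.69%, 7.81% and 11.4% of all were higher. Among the cKO libraries, library 1 was the lowest for 29 of the 30 genes, and without it the median was -0.15. Among 65 named genes, the 30 included, only those with a call could lose it, and of the 30 these were 10. Without cKO library 1, 2 or 3 or control library 3, 17, 16, 9 and 15 calls were lost. Calls were gained by 9 without control library 1, where 1 was lost, by 3 without control library 2 and by 1 without cKO library 3. Calls below on genes outside the 30 use every library, and many were lost with 1 left out. Over the 136 tested division genes outside the 30, 36 were lower with every library kept. Without cKO library 1, cKO library 2 or control library 3, 15, 16 and 20 of them were lower. A call named below may therefore not hold with 1 library left out.

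**Figure D3:**
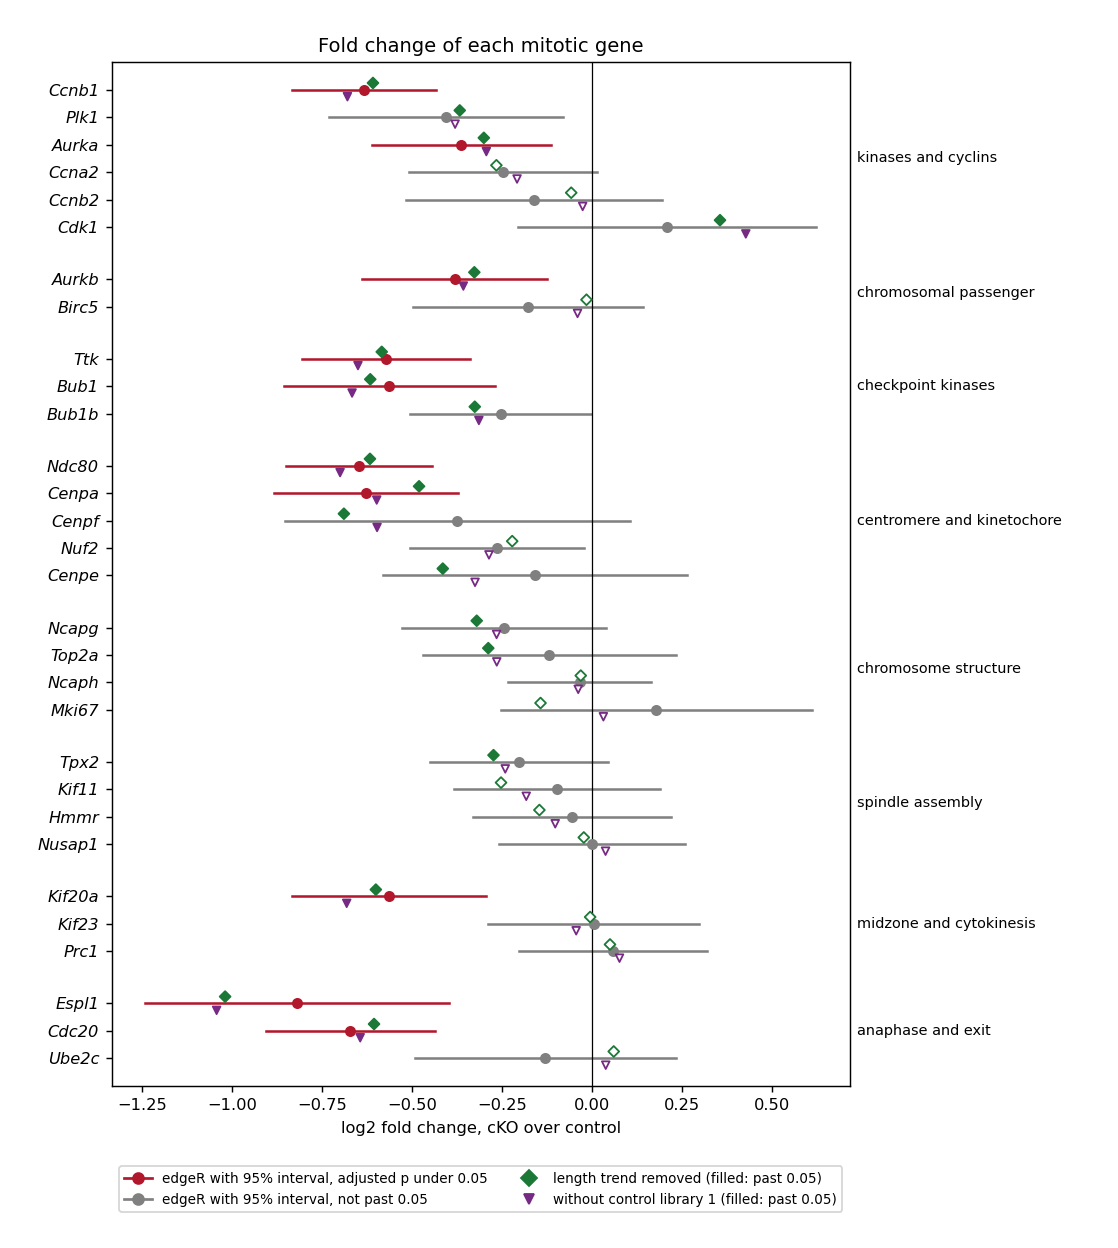
Log2 fold change (cKO over control) of each mitotic gene under TMM scaling with its 95% interval from edgeR, in red where the adjusted p is under 0.05, beside the values with the length trend removed (diamonds) and without control library 1 (triangles), filled where past the threshold. Espl1 is lowest at -0.82, and Cdk1 is highest at 0.21 and passes upward in both alternatives.

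Among the kinase of mitotic entry and its cyclins, Ccnb1 fell and Cdk1, Ccnb2 and Ccna2 did not pass. Ccnb1 (ENSMUSG00000041431), whose product is the main cyclin partner of CDK1, was at 76.6, 81.9 and 85.8 CPM in cKO libraries and at 123, 128 and 128 CPM in controls. The groups lie far apart with little spread, a 1.55-fold fall (log2 fold change -0.63, SE 0.0887, edgeR adjusted p = 0.0023). Pseudogene copies are annotated for Ccnb1 and for Ccnb2, and reads shared with them would make single values of these genes uncertain. Ccnb2 (ENSMUSG00000032218), the second B-type cyclin gene, was at 42.1, 54.4 and 57.9 CPM in cKO libraries and at 69.6, 52.5 and 50.4 CPM in controls. Its groups overlap, with control library 1 highest (-0.16, 95% interval -0.52 to 0.19, edgeR adjusted p = 0.483). Ccna2 (ENSMUSG00000027715), which acts in S phase and early mitosis, was at 129, 161 and 162 CPM in cKO libraries and at 194, 171 and 171 CPM in controls; the groups were apart, but the change of -0.25 was not past the test (edgeR adjusted p = 0.147). Cdk1 itself (ENSMUSG00000019942) was at 85.6, 108 and 111 CPM in cKO libraries and at 115, 71.5 and 76.8 CPM in controls. Control library 1 exceeded all cKO libraries and the other controls lay below them (0.21, 95% interval -0.21 to 0.62, edgeR adjusted p = 0.435). Cdk1 was called higher without control library 1 (0.43, edgeR adjusted p = 0.0131) and after length correction (0.36, edgeR adjusted p = 0.0352), and was at 0.07 without control library 2.

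Ratios of counts within a library do not depend on scaling. The log2 ratio of Ccnb1 to Cdk1 was -0.16, -0.40 and -0.37 in cKO libraries and 0.09, 0.84 and 0.74 in controls, with every cKO library below every control. These are ratios of counts, not of levels per length. The difference was -0.87, and -1.10 without control library 1. Ccna2 to Cdk1 differed by -0.48 and Ccnb2 to Cdk1 by -0.39, with every cKO library below every control in each case. The same held for Ndc80 against Nuf2 (-0.39), which form a complex, and for the related checkpoint genes Bub1 and Bub1b (-0.31). For Aurkb against Birc5 (-0.22), Ncapg against Ncaph (-0.20) and Aurka against Tpx2 (-0.15) the groups overlapped. The 5 pairs without overlap had p = 0.1 in an exact two-sided permutation test, the smallest that 3 against 3 libraries allow. Their adjusted p was 0.16 over the 8 pairs (exact permutation). No pair could pass 0.05 in this test, so it decides nothing and the ratios are a description. The 8 pairs are known partners or relatives and were chosen with the values known, and the 3 pairs with Cdk1 share it.

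**Figure D4:**
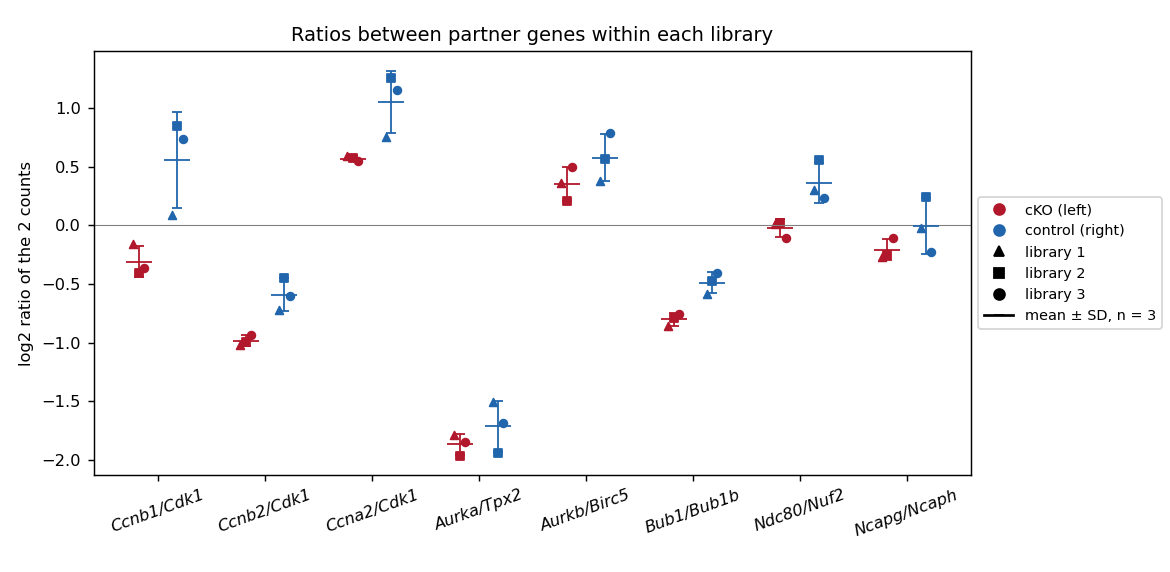
Log2 ratio of the counts of partner genes in each library, cKO in red on the left and control in blue on the right, with the mean and SD of 3 libraries. The 3 ratios to Cdk1, Bub1 to Bub1b and Ndc80 to Nuf2 are lower in every cKO library than in any control.

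The Aurora kinase genes Aurka and Aurkb fell, and the Polo kinase gene did not pass. Aurka (ENSMUSG00000027496), which acts at spindle poles, was at 33.5, 36.3 and 38.8 CPM in cKO libraries and at 52.4, 42.9 and 44.3 CPM in controls (-0.36, SE 0.11, edgeR adjusted p = 0.0407). Plk1 (ENSMUSG00000030867) was at 45.8, 60.1 and 68.0 CPM in cKO libraries and at 82.0, 69.8 and 78.4 CPM in controls, apart but with a wide spread in the knockout (-0.40, edgeR adjusted p = 0.0686). Plk1 passed with DESeq2, with total-count scaling, without control library 2, and after length correction (-0.37, edgeR adjusted p = 0.0448). Aurkb (ENSMUSG00000020897), the kinase of the chromosomal passenger complex, was at 39.1, 40.5 and 49.6 CPM in cKO libraries and at 59.7, 53.0 and 55.4 CPM in controls (-0.38, SE 0.114, edgeR adjusted p = 0.0386). Both calls were lost without control library 3, cKO library 1 or cKO library 2 and with the replicate block, at edgeR adjusted p = 0.0853 to 0.163 for Aurka and 0.0626 to 0.164 for Aurkb. Their changes were no larger than that of Plk1. Birc5 (survivin), of the same complex, overlapped between groups, at 33.6 ± 2.76 CPM in cKO libraries and 37.9 ± 7.16 CPM in controls (mean ± SD, n = 3 each). Of the other subunits, Cdca8 (borealin) fell by 0.56 (edgeR adjusted p = 0.00659) and Incenp was at -0.25 (adjusted p = 0.0841). Of 5 passenger and shugoshin genes outside the 30, 1 fell and 0 rose, with a median of -0.25. Aurkc, a paralog known mainly from meiosis, was at 0.601 ± 0.297 CPM in cKO libraries and 1.32 ± 0.187 CPM in controls (edgeR adjusted p = 0.0617). Among 17 tested kinase and cyclin regulators outside the 30, 7 fell and 0 rose, with a median of -0.37. Ccnb3, a cyclin gene known from meiosis, fell furthest, to 0.83 ± 0.213 CPM in cKO libraries, against 6.95 ± 3.28 CPM in controls (-3.06, edgeR adjusted p = 0.00263), and Gtse1 was at -0.84 (adjusted p = 0.00304). Mastl, a kinase that restrains mitotic phosphatases, was at -0.21 and did not pass.

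Of the 3 checkpoint genes 2 fell. Ttk (ENSMUSG00000038379), which encodes the MPS1 kinase at the head of the spindle checkpoint, was at 30.6, 34.1 and 36.6 CPM in cKO libraries and at 46.4, 52.1 and 51.9 CPM in controls (-0.57, SE 0.103, edgeR adjusted p = 0.00589). Bub1 (ENSMUSG00000027379), a kinetochore kinase, was at 56.3, 69.8 and 74.5 CPM in cKO libraries and at 87.7, 109 and 99.3 CPM in controls (-0.56, SE 0.129, edgeR adjusted p = 0.0152). Neither gene had overlapping groups. Bub1b (BUBR1), a part of the checkpoint complex that holds CDC20, had 116 ± 12.3 CPM in cKO libraries and 138 ± 11.9 CPM in controls (n = 3 each), apart but not called (-0.25, edgeR adjusted p = 0.126). It was called without control library 1 (-0.31, edgeR adjusted p = 0.0318). Of 9 other checkpoint genes 4 fell and 0 rose, with a median of -0.21. Trip13, a remodeller of the checkpoint protein MAD2 that also acts in meiosis, fell to 29.4 ± 2.34 CPM in cKO libraries, against 57.1 ± 5.44 CPM in controls (-0.96, edgeR adjusted p = 0.000933). Spdl1, which recruits dynein to kinetochores, was at -0.53, Mad2l1, which encodes MAD2, at -0.43 (edgeR adjusted p = 0.0118 and 0.0326), and Bub3 at -0.10 (adjusted p = 0.582).

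At the centromere and kinetochore 2 of 5 genes fell. Ndc80 (ENSMUSG00000024056), the microtubule-binding subunit of the outer kinetochore, was at 36.2, 40.4 and 39.0 CPM in cKO libraries and at 58.0, 62.7 and 60.3 CPM in controls. The spread was small in each group (-0.65, SE 0.0899, edgeR adjusted p = 0.00227). Cenpa (ENSMUSG00000029177), the histone H3 variant of centromeres, was at 34.0, 42.0 and 42.0 CPM in cKO libraries and at 65.3, 56.1 and 61.1 CPM in controls (-0.63, SE 0.113, edgeR adjusted p = 0.00594). Nuf2, the partner of NDC80, had 39.2 ± 3.21 CPM in cKO libraries and 47.0 ± 4.34 CPM in controls (-0.26, edgeR adjusted p = 0.101). Cenpf (ENSMUSG00000026605), a large kinetochore protein gene, had 183, 193 and 226 CPM in cKO libraries and 183, 356 and 241 CPM in controls, highest in control library 2, where all 10 long transcripts were above the control mean. Its change of -0.37 did not pass (edgeR adjusted p = 0.222), but it did without control library 1 (-0.60, adjusted p = 0.00959) and after length correction (-0.69, adjusted p = 0.00056), and it was at -0.09 without control library 2. Cenpe, a kinesin of kinetochores with a similarly long transcript, was at -0.16 (edgeR adjusted p = 0.566), at -0.41 after length correction (adjusted p = 0.0149) and at 0.11 without control library 2. Of 30 other kinetochore and centromere genes 7 fell and 1 rose, with a median of -0.33. With every library kept, the remaining subunits of the NDC80 complex fell, Spc24 by 0.61 and Spc25 by 0.43 (edgeR adjusted p = 0.0181 and 0.0275). Cenpt, which links inner and outer kinetochore, was at -0.67 and its partner gene Cenps at -1.17 (edgeR adjusted p = 0.00227 and 0.006), and Knl1, the scaffold that BUB1 binds, at 0.03 (adjusted p = 0.948). Ska2, a microtubule-coupling gene of the outer kinetochore, was the one that rose, by 0.40 (edgeR adjusted p = 0.0197). It was singled out for its value, and its call was lost without control library 3 and without any 1 cKO library. It was also lost under Sertoli cell scaling, where only 0.298% of all tested genes were called higher.

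Of the 4 chromosome structure genes none passed. Top2a, the topoisomerase that untangles chromosomes, had 356 ± 41.8 CPM in cKO libraries and 387 ± 81.9 CPM in controls (-0.12, 95% interval -0.47 to 0.23). Mki67, which coats mitotic chromosomes and serves as a marker of cycling cells, had 339, 411 and 464 CPM in cKO libraries and 293, 473 and 305 CPM in controls. Its sign depended on the processing (0.18 as fitted, edgeR adjusted p = 0.524; 0.42 without control library 2, adjusted p = 0.0389; -0.14 with the length trend removed, adjusted p = 0.414). The condensin I genes Ncapg and Ncaph were at -0.24 and -0.03 (edgeR adjusted p = 0.182 and 0.805), the interval of Ncaph running from -0.23 to 0.16. After length correction Ncapg (-0.32) and Top2a (-0.29) passed (edgeR adjusted p = 0.0447 and 0.0496), but neither did without control library 1 when length was not corrected. With both steps together Top2a passed (-0.33, edgeR adjusted p = 0.0278). Of 7 related genes 0 fell and 1 rose with edgeR; at an unadjusted p 1 fell. The gene that rose was Top2b, the related topoisomerase that non-dividing cells also hold, at 244 ± 6.34 CPM in cKO libraries and 179 ± 29.0 CPM in controls (0.44, edgeR adjusted p = 0.0279). The condensin genes Ncapd2, Smc2 and Smc4 were at -0.30, -0.08 and -0.05 (edgeR adjusted p = 0.0527, 0.757 and 0.796).

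The genes of spindle assembly did not pass either. Kif11, the motor that separates spindle poles, was at -0.10, Tpx2, the activator of Aurora A, at -0.20, Nusap1, a microtubule-bundling gene, at -0.00 and Hmmr, a spindle pole gene, at -0.06 (edgeR adjusted p = 0.203 to 0.999). Nusap1 had 73.8 ± 9.08 CPM in cKO libraries and 73.8 ± 5.61 CPM in controls (95% interval -0.26 to 0.26). Of these 4, Tpx2 passed with the length trend removed (-0.27, edgeR adjusted p = 0.0393). Of 28 other spindle genes 10 fell and 0 rose, with a median of -0.18. Haus4 and Haus1, subunits of the augmin complex that branches spindle microtubules, were at -0.80 and -0.65 (edgeR adjusted p = 0.00289 and 0.00515). Of 6 centriole genes 2 fell and 0 rose, Plk4, the kinase of centriole duplication, by 0.54 and Cenpj by 0.51 (edgeR adjusted p = 0.026 and 0.0222).

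In the spindle midzone, where the cleavage plane forms, 1 of 3 genes fell. Kif20a (ENSMUSG00000003779), a kinesin of the midzone, was at 81.4, 86.7 and 99.8 CPM in cKO libraries and at 115, 139.9 and 141 CPM in controls (-0.56, SE 0.119, edgeR adjusted p = 0.0109). Kif23, the kinesin of centralspindlin, had 102 ± 14.3 CPM in cKO libraries and 102 ± 11.5 CPM in controls (95% interval -0.29 to 0.30). Prc1, the microtubule bundler of the midzone, had 144 ± 16 CPM in cKO libraries and 138 ± 13.1 CPM in controls (95% interval -0.20 to 0.32). Of 5 other cytokinesis genes 0 passed with edgeR, and 1 had an unadjusted p under 0.05, the abscission gene Cep55 at -0.37 (adjusted p = 0.0557). Ect2, which activates RhoA at the cleavage site, was at -0.24.

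Of the genes of anaphase and exit, 2 of 3 fell. Cdc20 (ENSMUSG00000006398), the activator of the anaphase-promoting complex, was at 60.1, 60.1 and 70.5 CPM in cKO libraries and at 108, 94.6 and 100.4 CPM in controls, a 1.59-fold fall (-0.67, SE 0.104, edgeR adjusted p = 0.00329). Espl1 (ENSMUSG00000058290), which encodes separase, had the lowest fitted value of the 30, with 60.9, 63.5 and 75.1 CPM in cKO libraries and 82.7, 142 and 127 CPM in controls (-0.82, SE 0.187, edgeR adjusted p = 0.0147). The size rests on single controls: it was at -1.04 without control library 1, the lowest control, and at -0.68 without control library 2, where Cdc20 (-0.73) and Cenpa (-0.69) were lower. Ube2c, the ubiquitin-conjugating enzyme of the complex, had 63.1 ± 8.07 CPM in cKO libraries and 69.0 ± 15.0 CPM in controls (95% interval -0.49 to 0.23). Of 17 other genes of the complex and its regulators 2 fell and 0 rose, with a median of -0.09. The share that fell is near the 13.9% of all tested genes, of which 11.1% rose. Anapc4 was at -0.40 and Anapc2 at -0.29 (edgeR adjusted p = 0.0143 and 0.0398).

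Among 12 tested genes of late cell cycle transcription 3 fell and 3 rose. Mybl2, which encodes B-MYB, the partner of the MuvB core, was at 27.2 ± 3.74 CPM in cKO libraries and 48.2 ± 3.96 CPM in controls (-0.83, edgeR adjusted p = 0.00273). Foxm1, a transcription factor gene of mitotic genes, was at 93.3 ± 8.14 CPM in cKO libraries and 119.7 ± 7.76 CPM in controls (-0.36, edgeR adjusted p = 0.0316), and E2f5, of the repressive E2Fs, was at -0.75 (adjusted p = 0.00304). The 3 that rose, which were picked for their values, were Mybl1 (0.79), Rbl2 (0.56) and Rbl1 (0.35), the last 2 encoding the pocket proteins p130 and p107 (edgeR adjusted p = 0.00333, 0.00511 and 0.0396). None of the 3 was called under Sertoli cell scaling, where only 0.298% of all tested genes were called higher, so that loss says little about them. Rbl1 also lost its call after length correction and without any 1 library other than control library 2. Over all 136 tested division genes outside the 30, 36 fell and 5 rose (13.9% and 11.1% of all tested genes), with a median of -0.21. DESeq2 gave 43 and 5 (15.8% and 11.9% of all), and limma-voom 35 and 5 (13.4% and 11.5%). Without cKO library 1, 2 or 3 or control library 3, 15, 16, 26 and 20 were lower (6.59%, 6.19%, 8.56% and 7.63% of all). Then 2 were higher each time (3.24%, 3.1%, 4.57% and 4.62%). Without control library 1 or 2, 52 and 41 were lower (19.7% and 15.7%), and 7 and 8 higher (16.4% and 13.7%). At an unadjusted p under 0.05, 54 were lower and 9 higher, beside 2880 lower and 2756 higher of all 14424 tested genes. Where edgeR called none higher, the anaphase-promoting complex and the centriole class held 1 gene each that was higher at an unadjusted p. The other such classes held 0.

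The mitotic genes were next set beside markers of germ cells and of Sertoli cells. Their log2 fold changes of -0.82 to 0.21 did not reach the range of the pan-germ-cell markers, -1.84 to -1.15, and all but Cdk1 and Mki67 were below the range of the Sertoli cell markers, 0.07 to 0.71. Summed over the 30 genes the level was 2631, 3055 and 3307 CPM in cKO libraries 1, 2 and 3, and 3249, 3857 and 3273 CPM in control libraries 1, 2 and 3. With libraries scaled to 17 pan-germ-cell genes, all 30 were higher and 0 lower in the knockout, by 0.63 (Espl1) to 1.61 (Mki67). The median of all genes then lay at 1.43, and 92.3% of them were higher and 0.735% lower, beside a median of 1.16 for the mitotic genes. With libraries scaled to 20 Sertoli cell genes, 19 were lower and 0 higher, with a median of -0.63 against -0.36 for all genes, of which 33.3% were lower and 0.298% higher. The part of each lineage in these transcripts was not tested.

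Levels between genes are compared as FPKM, which the authors deposited and which divides by length. This does not remove the length pattern of control library 1. In controls 1, 2 and 3 the short Ube2c was at 91.6, 60.8 and 65.9 FPKM, and the long Top2a at 62.9, 91.7 and 72.0 FPKM. In controls Top2a, Ube2c and Cdk1 led with 75.5 ± 14.7, 72.8 ± 16.5 and 68.5 ± 17.3 FPKM, and Hmmr was last at 13.7 ± 0.965 FPKM (mean ± SD, n = 3). The place of Cdk1 rests on control library 1: it was at 88.2, 55.4 and 62.1 FPKM in controls 1, 2 and 3, where Ccna2 was at 67.6, 57.8 and 59.8 FPKM and Ccnb1 at 51.6, 58.7 and 60.9 FPKM. In cKO libraries Cdk1 led at 75.4 ± 11.4 FPKM and Espl1 was last at 10.5 ± 1.81 FPKM. Of the 29 neighbouring pairs in the control order, 26 were closer than the larger SD of the pair, so most neighbours do not differ beyond their spread. Cdc20, Ccnb1 and Cenpa, at ranks 5, 6 and 7 in controls, averaged 34.7, 33.2 and 33.0 FPKM in cKO libraries (ranks 9, 10 and 11) and 57.7, 57.1 and 54.1 FPKM in controls.

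**Figure D5:**
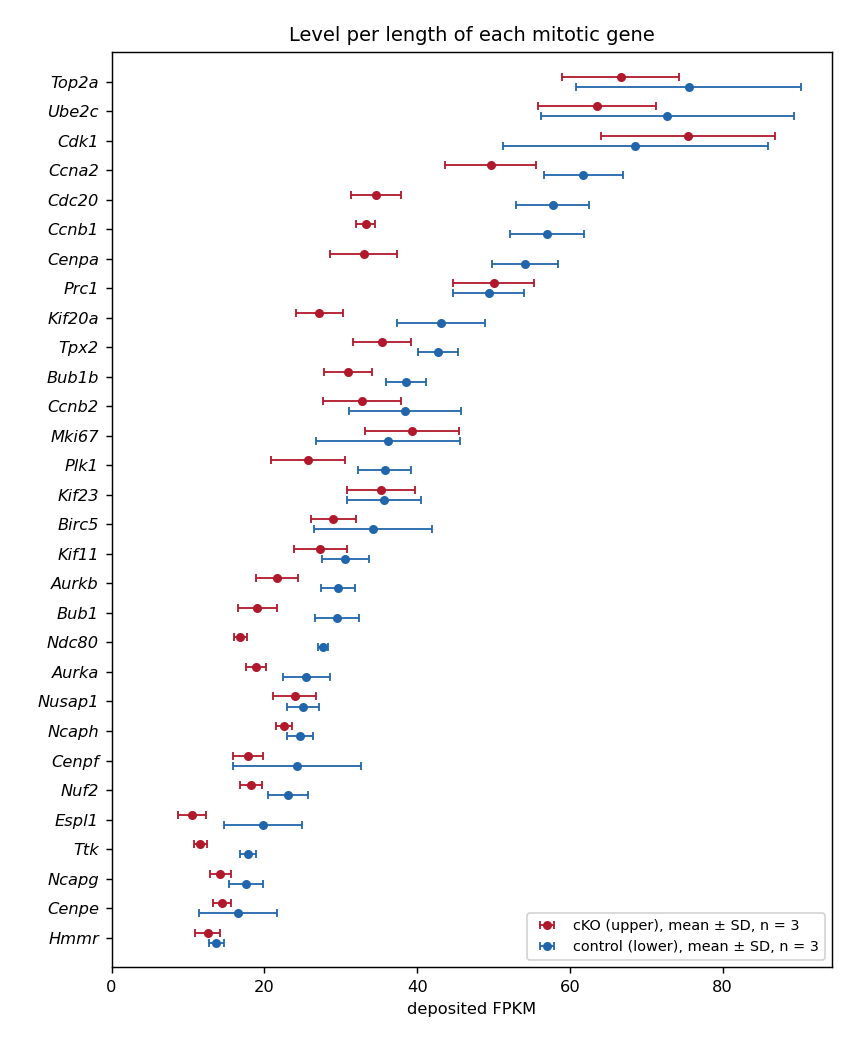
Deposited FPKM of each mitotic gene (horizontal axis, mean ± SD of 3 libraries), cKO in red above control in blue, ordered by the control mean. Cdc20, Ccnb1 and Cenpa are at 33.0 to 34.7 FPKM in cKO libraries and at 54.1 to 57.7 FPKM in controls, while Cdk1 and Prc1 overlap.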

How the data were processed

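Messenger RNA was sequenced from mouse testes, 3 cKO and 3 control libraries; kits for RNA isolation and for messenger RNA libraries were used, per the labels' protocols. The authors deposited counts and FPKM values of every gene in 1 table. Per the submitters' processing notes StringTie 1.3.1 and RSEM were used, without a stated role; not given in the sources used here: aligner, build, annotation and strandedness. The deposited counts are whole and were taken for rounded estimated counts, since each library holds 3 to 21 genes with FPKM above 0 but no count. The FPKM values deposited by the authors served for levels and implied lengths, not for tests. Symbols came from the supplied gene names (22219 of 22274 IDs).

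Genes were filtered with filterByExpr of edgeR 4.0.16 (minimum count 10), which left 14424 genes and dropped 0.063% of counts, scaled by TMM and tested with the quasi-likelihood test (R 4.3.3), Benjamini-Hochberg adjusted over all tested genes, threshold 0.05. The SE is the log2 fold change over the square root of F. Log2 fold changes are cKO over control. The procedure was run on simulated counts with known changes. The condition set there covered only changes larger than those of the 30 genes, and none was set on false calls. Alternatives were DESeq2 1.42.0, limma-voom (limma 3.58.1), other scalings and filters, a block on replicate number, leaving out each library in turn, and a lowess length trend (span 0.3) removed by an offset; the last combined with leaving out control library 1 was chosen after seeing the data. Named genes were all 30 members, Dtl, the 2 with the smallest p of each class of other division genes and 16 listed by name, of which Ccna1 did not pass the filter. Ska2, Mybl1, Rbl1 and Rbl2 were named outside this rule, once their values were known. Lin54 and Gcna were not analysed here. The members and lists were chosen with earlier results of these data known. Annotated copies exist for Ccnb1 and Ccnb2 (Ccnb1-ps and Ccnb2-ps), which the table does not list, so reads of these genes may include reads of the copies.

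The marker lists besides those in the text gave, of tested genes, 6 lower and 1 higher of 15 undifferentiated spermatogonia genes, 8 and 1 of 9 differentiating ones, 15 and 0 of 16 meiotic prophase genes, 0 and 3 of 8 Leydig, 0 and 1 of 7 myoid, 0 and 4 of 7 stroma, 0 and 2 of 7 macrophage, 0 and 3 of 6 endothelial and 0 and 0 of 4 erythroid genes (edgeR; also 0 erythroid genes at an unadjusted p under 0.05).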

Additional observations from a re-analysis of the deposited data

How the results depend on the processing

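Scaling to germ-cell genes moved the median of all genes to 1.43 and turned most signs: 13417 genes were called, of the 30 genes 0 were lower and 30 higher with a median of 1.16, and of the other division genes 1 was lower and 133 higher. Log2 fold changes that turned positive there were Ccnb1 0.78, Ccnb2 1.21, Ccna2 1.15, Plk1 0.99, Aurka 1.03, Aurkb 1.01, Bub1 0.86, Bub1b 1.16, Ttk 0.85, Top2a 1.31, Cenpa 0.77, Cenpe 1.28, Cenpf 1.08, Kif11 1.32, Kif20a 0.86, Cdc20 0.72, Ube2c 1.24, Birc5 1.20, Nusap1 1.39, Tpx2 1.21, Ndc80 0.77, Nuf2 1.14, Hmmr 1.36, Espl1 0.63, Ncapg 1.16, Ncaph 1.37 among the 30, and Anapc2 1.11, Anapc4 1.02, Aurkc 0.22, Bub3 1.28, Cdca8 0.83, Cenpj 0.91, Cenps 0.20, Cenpt 0.74, Cep55 1.06, E2f5 0.66, Ect2 1.18, Foxm1 1.05, Gtse1 0.58, Haus1 0.75, Haus4 0.60, Incenp 1.17, Mad2l1 0.96, Mastl 1.22, Mybl2 0.58, Ncapd2 1.12, Plk4 0.90, Smc2 1.36, Smc4 1.37, Spc24 0.77, Spc25 0.96, Spdl1 0.88, Trip13 0.46, Dtl 1.12 besides. Scaled to Sertoli cell genes, 19 of the 30 were lower (median -0.63). Of the other division genes 79 were lower and 0 higher (43 genes of the whole table were called higher). Cdk1 (-0.15), Mki67 (-0.24), Kif23 (-0.39), Prc1 (-0.33), Knl1 (-0.41) and Rbl1 (-0.056) turned negative. Top2b, Mybl1, Rbl2 and Ska2 lost their calls there. With the length trend removed 17 were lower and 1 higher, and Mki67 (-0.14), Kif23 (-0.0046), Knl1 (-0.19), Ube2c (0.061) turned. Without control library 1 as well, 5770 genes were called, 17 of the 30 lower and 1 higher, 57 other division genes lower and 8 higher, and Mki67 (-0.054), Kif23 (-0.040), Ube2c (0.098), Birc5 (0.0084), Nusap1 (0.040), Bub3 (0.025), Knl1 (-0.33) turned. Near 0, Kif23 (-0.013) turned with DESeq2, Kif23 (-0.013) with RLE, Kif23 (-0.0049) with no filter, Kif23 (-0.021) with upper-quartile and Kif23 (-0.061), Prc1 (-0.0073), Knl1 (-0.031) with total-count scaling. The cause of these shifts was not tested.

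With any 1 library left out, 1355 to 5255 genes were called; of the 30, 5 to 12 were lower and 0 to 1 higher with a median of -0.31 to -0.15, and of the other division genes 15 to 52 were lower and 2 to 8 higher. Values that turned sign in at least 1 of these, with their range, were Bub3 (-0.19 to 0.013), Cenpe (-0.32 to 0.11), Hmmr (-0.12 to 0.056), Kif11 (-0.19 to 0.0020), Kif23 (-0.061 to 0.12), Knl1 (-0.25 to 0.41), Ncaph (-0.071 to 0.011), Nusap1 (-0.086 to 0.093), Prc1 (-0.018 to 0.15), Smc2 (-0.27 to 0.10), Smc4 (-0.12 to 0.054), Top2a (-0.26 to 0.049), Ube2c (-0.24 to 0.039). The labels do not say whether libraries of the same number are paired. The correlations of their deviations from the group means were -0.07, -0.08 and 0.07 for numbers 1, 2 and 3. For unlike numbers they ran from -0.22 to 0.22. With 3 libraries a group these values cannot show or exclude a pairing. With the replicate number as a block 2822 genes were called, 8 of the 30 were lower (without Aurka and Aurkb) and 0 higher. Depth was no limit on detection, with at least 467 counts per gene, and intervals rest on 3 libraries a group.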
